A study of Rattus norvegicus with 6 samples.

Results

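The endoplasmic reticulum (ER) chaperones described here are 10 genes, chosen by name with earlier results of these data known. All matched by gene symbol among the 30957 genes of the deposited rat table. They are Hspa5, Hsp90b1, Dnajb9, Dnajb11, Hyou1, Sdf2l1, Pdia4, Pdia6, Calr and Herpud1. Total RNA of the flexor digitorum longus, a toe-flexing muscle of the lower hind limb, was depleted of ribosomal RNA and sequenced. The ACS group (acute osteofascial compartment syndrome) held 3 libraries taken at 18 h, and the Control group held 3 libraries labelled 0 h. Compartment syndrome is the loss of blood flow in a muscle whose enclosed pressure has risen, and it was induced by tying an elastic band around the skin at the knee. Both groups were wild-type Sprague-Dawley rats, with no age or sex given in the labels. A sham-operated group and a time-matched control were not analysed here, so time and ACS cannot be told apart. The labels do not say whether each library came from a separate rat, so p-values measure the spread between these libraries, which may in part be technical. The series' title asks about ferroptosis genes in ACS muscle; the chaperones are set beside that question here.

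The ER lumen is where secreted and membrane proteins fold. BiP, the product of Hspa5, binds unfolded chains there, and its J-domain partners, nucleotide exchange factors, disulfide isomerases and lectins help the folding along. When unfolded chains accumulate, the sensors Atf6, Ern1 (IRE1) and Eif2ak3 (PERK) start the unfolded protein response, which raises the transcription of many of these chaperones. In skeletal muscle the sarcoplasmic reticulum is a specialised part of the same membrane system that stores calcium, and calreticulin and BiP bind calcium as well as unfolded protein.

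Of the 10 chaperones, 2 rose in ACS muscle, Hspa5 and Dnajb9, and 0 fell (edgeR's quasi-likelihood test, Benjamini-Hochberg adjusted p under 0.05 over 12873 genes). Hspa5 was 5.39-fold higher and Dnajb9 3.29-fold higher. Over all genes tested, 3.43% were called higher, 0.707% lower and 4.14% either way. All 10 members passed the filter on low counts. On the CPM scale described below, every ACS library lay above every Control library for 6 of them: Hspa5, Dnajb9, Dnajb11, Sdf2l1, Pdia6 and Herpud1. The same held for 16.7% of all genes tested. By count over gene length and library total (FPKM), the Sdf2l1 and Herpud1 groups overlapped, and Pdia6 was lower in every ACS library. The unadjusted p was under 0.05 for 5 members, all higher in ACS and 0 lower, against 15.5% of all genes higher and 7.98% lower. By other tests, DESeq2 called 2 members higher (8.86% of all genes), limma-voom 1 (2.04%) and limma-voom with quality weights 3 (8.23%), and each called 0 lower. The members' median log2 fold change was 0.84, and it was -0.01 over all genes. Since the members were chosen with earlier results of these data known, the values over all genes are no test of them.

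The libraries held between 14340865 and 21003928 counts, and levels are given as CPM, counts scaled to a common library size with TMM factors. Replicate 1 of ACS stood apart. Mitochondrial genes took 43.4%, 4.82% and 5.33% of its counts and of those of ACS replicates 2 and 3, against 8.60%, 8.38% and 7.52% in Control replicates 1, 2 and 3. Over all genes 442 were called higher and 91 lower, and with library totals in place of TMM the split was 345 and 228. The median log2 fold change of all genes was then -0.32, so changes under that scaling are read relative to this shift. Without ACS replicate 1 the members' median log2 fold change was 0.31. The skeletal muscle markers, which include Acta1, Ckm and Neb, summed to 117177, 154428 and 245097 CPM in ACS libraries and to 181996, 172347 and 163107 CPM in Control libraries, so the labelled tissue carried its defining genes in all 6 libraries.

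**Figure D1:**
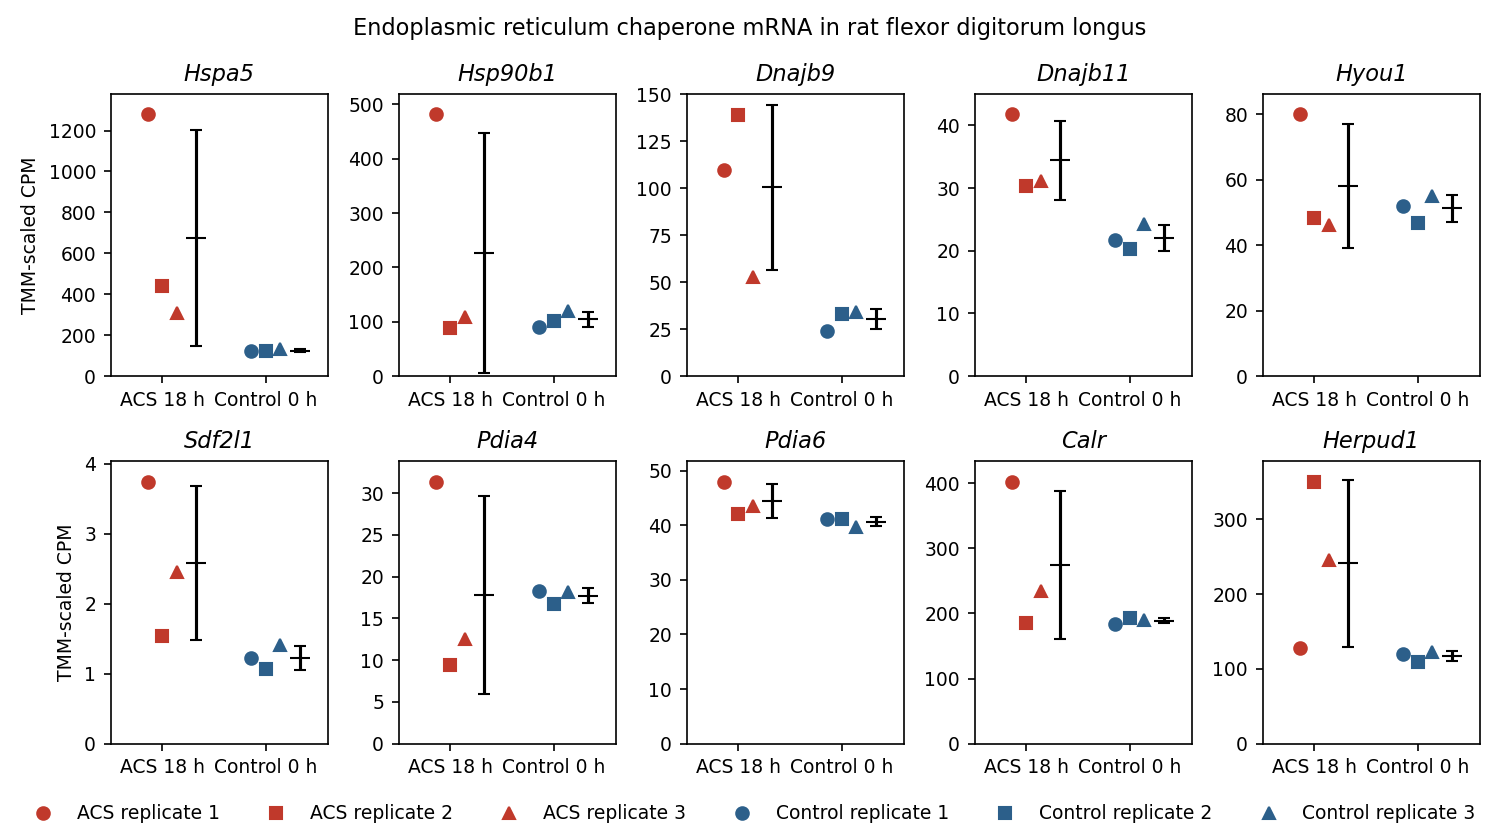
TMM-scaled CPM of the 10 chaperones, 1 panel a gene, with each library as a point, and the mean and SD of 3 libraries as a bar to the right of each group. The Control libraries cluster tightly, while the ACS libraries spread, with replicate 1 highest for 8 genes and replicate 2 for Dnajb9 and Herpud1.

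The promoters of these genes are where the unfolded protein response is known to act. In human and mouse cells Atf6, together with NF-Y, binds the ER stress response element (ERSE), which reads CCAAT, 9 bases of any kind, then CCACG. A shorter form, ERSE-II, which reads ATTGG, 1 base of any kind, then CCACG, is known from human HERPUD1. Both were searched on both strands in the RefSeq promoters of rat build GRCr8, each 250 bases before to 50 bases after a gene's start. Of the 10 members 9 had a promoter in that table; Pdia6 did not. An exact ERSE stood in the promoters of 3 members and in 0.0657% of 33469 promoters, and an exact ERSE-II in those of 3 other members and in 0.0508%. These shares are no test of the members, since many are known targets of this response and ERSE-II is known from HERPUD1 itself. Both motifs overlap shorter ones at each end. The end CCACG alone was found in 9 members and in 31.6% of all promoters. The other end, CCAAT, which is ATTGG on the opposite strand, was also found in 9 members and in 37.5% of all promoters. The promoters of 4 members are printed because they hold the pair that rose, Hspa5 and Dnajb9, and a member with each motif whose call did not pass, Hsp90b1 and Herpud1. Capitals mark the exact ERSE or ERSE-II matches, and all are written 5′ to 3′ on the gene's strand.
Hspa5 (chr3:38452766-38453065, plus strand): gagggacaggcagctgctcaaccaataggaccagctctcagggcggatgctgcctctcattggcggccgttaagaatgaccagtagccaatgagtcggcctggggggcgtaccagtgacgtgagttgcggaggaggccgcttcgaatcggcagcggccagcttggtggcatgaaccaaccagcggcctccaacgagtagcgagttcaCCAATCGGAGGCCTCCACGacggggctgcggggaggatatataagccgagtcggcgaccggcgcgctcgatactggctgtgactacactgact
Dnajb9 (chr6:67002002-67002301, minus strand): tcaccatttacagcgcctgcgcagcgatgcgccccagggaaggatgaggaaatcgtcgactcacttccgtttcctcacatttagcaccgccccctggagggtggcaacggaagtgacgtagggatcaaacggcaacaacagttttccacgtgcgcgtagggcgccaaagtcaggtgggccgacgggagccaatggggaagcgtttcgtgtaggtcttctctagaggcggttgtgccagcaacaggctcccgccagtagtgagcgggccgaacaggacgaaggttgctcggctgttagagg
Hsp90b1 (chr7:23012244-23012543, minus strand): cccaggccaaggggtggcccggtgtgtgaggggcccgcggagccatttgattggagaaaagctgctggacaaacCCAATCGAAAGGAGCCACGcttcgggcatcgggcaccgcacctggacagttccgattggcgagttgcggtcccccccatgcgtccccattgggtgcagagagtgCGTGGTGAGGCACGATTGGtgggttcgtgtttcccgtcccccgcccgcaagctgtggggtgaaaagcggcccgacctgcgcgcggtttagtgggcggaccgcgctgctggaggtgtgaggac
Herpud1 (chr19:10614658-10614957, minus strand): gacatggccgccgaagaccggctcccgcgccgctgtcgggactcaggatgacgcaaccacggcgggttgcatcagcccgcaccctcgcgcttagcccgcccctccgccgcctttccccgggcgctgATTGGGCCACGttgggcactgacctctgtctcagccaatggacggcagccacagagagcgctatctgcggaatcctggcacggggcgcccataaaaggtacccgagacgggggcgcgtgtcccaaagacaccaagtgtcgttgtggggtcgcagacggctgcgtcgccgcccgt

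The Hspa5 match began 43 bases before the start and read in the gene's direction. Hsp90b1 had 2 matches, 176 and 72 bases before the start, the nearer one on the opposite strand. The Herpud1 ERSE-II began 124 bases before the start. Dnajb9, which rose, had neither motif in this window, although it held CCACG and CCAAT apart from each other; the absence of a match says only that these letters are not there. The remaining matches, each shown with 10 bases on either side, were those of Calr, Hyou1 and Dnajb11, of which 0 passed the test. A match on the opposite strand reads as the reverse complement of the letters given.
Calr (chr19:40213125-40213163, plus strand): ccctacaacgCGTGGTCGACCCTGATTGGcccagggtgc
Hyou1, first (chr8:53602684-53602714, plus strand): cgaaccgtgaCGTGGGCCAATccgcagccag
Hyou1, second (chr8:53602784-53602814, plus strand): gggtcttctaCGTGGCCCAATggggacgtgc
Dnajb11 (chr11:91672790-91672820, minus strand): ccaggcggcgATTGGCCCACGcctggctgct

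The Calr match lay 232 bases, the Hyou1 matches 188 and 88 bases, and the Dnajb11 match 10 bases before the annotated start. Hyou1 has 2 RefSeq promoters, and the matches were in 1 of them. The UPRE core TGACGTGG was found in 1 member, Hyou1, and in 0.595% of all promoters. Its last letters, CGTGG, are those that begin the first Hyou1 ERSE-II match, so these motifs overlap there. The letters TGATGNAA, found at sites of C/EBP and ATF pairs, were in 1 member, Herpud1, and in 3.98% of all promoters. The cyclic AMP element TGACGTCA was in 0 members and in 1.83% of all promoters.

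**Figure D2:**
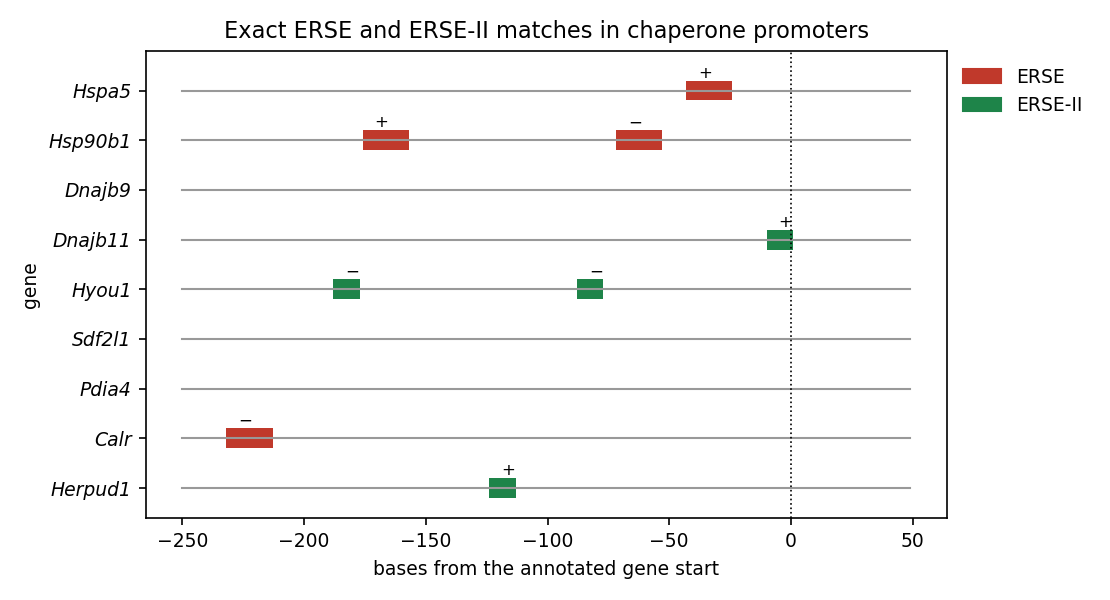
Exact ERSE (red) and ERSE-II (green) matches in the promoters of the 9 members in the RefSeq table, by distance in bases from the annotated start, with the strand relative to the gene above each box. Of these members 6 have a match and Dnajb9, Sdf2l1 and Pdia4 have none.

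Hspa5 encodes BiP, the HSP70 of the ER lumen and the chaperone that holds the stress sensors inactive. It is ENSRNOG00000018294, at chromosome 3, 13838304 to 13842762 on the plus strand of Rnor 6.0, the build of the files. Hspa5 had 1279, 441 and 307 CPM in ACS replicates 1, 2 and 3, against 125, 121 and 131 CPM in Control replicates 1, 2 and 3. Every ACS library lay above every Control library, at 10.2, 3.52 and 2.44 times the Control mean. The means were 675 ± 527 CPM in ACS and 125 ± 5.21 CPM in Control (SD, n = 3 each), and the log2 fold change was 2.43 (SE 0.527, 95% interval 1.23 to 3.63, adjusted p = 0.0442). Without ACS replicate 1, where Hspa5 was highest, the log2 fold change was 1.57 (adjusted p = 0.00958). The call was lost without ACS replicate 2 (adjusted p = 0.0573) and without Control replicate 1, 2 or 3 (0.198, 0.193 and 0.163). Without ACS replicate 3, Hspa5 and Dnajb9 were both called (9.72% of all genes were then called higher). Leaving out any 1 Control library left 0 of all genes called, by the same test.

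Among the members, Hspa5 also took a larger share. Per length, in FPKM, it had 372, 173 and 113 in ACS libraries, against 52.9, 52.7 and 58.9 in Control libraries. It stood at ranks 77, 289 and 418 of the 30957 genes by FPKM in ACS libraries and at ranks 885, 923 and 829 in Control libraries. Its share of the members' summed FPKM was 47.8%, 28.2% and 24.3% in ACS, against 16.1%, 15.5% and 15.8% in Control. Since FPKM is divided by the library total, the mitochondrial counts of ACS replicate 1 lower all its FPKM values, but a ratio of genes within a library is free of that. Fits on log2(FPKM + 1) with and without a filter, and on log2(FPKM + 0.1), did not call Hspa5 (limma, adjusted p = 0.0547, 0.119 and 0.0656).

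Dnajb9, also called ERdj4, is a J-domain protein that works with BiP and, as known in hamster cells, restrains the sensor IRE1. It is ENSRNOG00000004006, at chromosome 6, 64165914 to 64170122 on the minus strand. Dnajb9 had 109, 139 and 52.6 CPM in ACS libraries, against 24.2, 33.1 and 34.2 CPM in Control libraries. The groups did not overlap, and here replicate 2 of ACS was highest and replicate 3 lowest. The means were 100.4 ± 44.0 CPM in ACS and 30.5 ± 5.50 CPM in Control (SD, n = 3 each), with a log2 fold change of 1.72 (SE 0.375, 95% interval 0.87 to 2.57, adjusted p = 0.0444). Without ACS replicate 1 it was 1.65 (adjusted p = 0.0372). The call was lost without ACS replicate 2 (adjusted p = 0.0953), without Control replicate 1, 2 or 3 (0.202, 0.187 and 0.155) with library totals (0.0751), with limma-voom (0.0588) and in the 3 FPKM fits (0.0991, 0.114 and 0.172).

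Sample descriptions hold the letters ji for replicate 3 of each group, with no meaning given. Within that pair alone Hspa5 had 307 CPM in ACS and 131 CPM in Control, and Dnajb9 had 52.6 CPM in ACS and 34.2 CPM in Control. Without the pair the log2 fold change of Hspa5 was 2.80 (adjusted p = 0.0761) and that of Dnajb9 was 2.11 (adjusted p = 0.0501). With a term for the pair they were 2.29 (adjusted p = 0.0728) and 1.63 (adjusted p = 0.0729), so neither gene was called in either fit.

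Dnajb11 (ERdj3), a second J-domain partner of BiP that binds unfolded chains directly, is ENSRNOG00000001803, at chromosome 11, 81741297 to 81757813 on the minus strand. It had 41.7, 30.4 and 31.1 CPM in ACS libraries, against 21.7, 20.2 and 24.2 CPM in Control libraries. The groups did not overlap, and the log2 fold change of 0.64 (SE 0.247, 95% interval 0.08 to 1.20) missed the adjusted threshold (adjusted p = 0.163). Sdf2l1, which forms a complex with Dnajb11 in mammalian cells, is ENSRNOG00000001859, at chromosome 11, 88122271 to 88124513 on the plus strand. It was the least abundant member, with 3.74, 1.54 and 2.46 CPM in ACS, against 1.22, 1.06 and 1.40 CPM in Control. Those values rest on 40, 30 and 44 reads in ACS and 25, 22 and 34 reads in Control. The Sdf2l1 log2 fold change was 1.05 (SE 0.451, 95% interval 0.02 to 2.08, adjusted p = 0.203), with no overlap between groups in CPM. In FPKM the Sdf2l1 groups overlapped, with 1.46 in ACS replicate 2 and 1.52 in Control replicate 3.

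Hyou1 (GRP170) is a large HSP70-like protein that releases ADP from BiP; it is ENSRNOG00000010944, at chromosome 8, 48699769 to 48711910 on the plus strand. Hyou1 had 80.0, 48.3 and 46.2 CPM in ACS libraries, against 52.0, 46.7 and 55.1 CPM in Control libraries. ACS replicate 1 alone lay above the Control range, and replicate 3 lay below it. The log2 fold change was 0.18 (SE 0.282, 95% interval -0.46 to 0.82, adjusted p = 0.722), and it was -0.12 without ACS replicate 1 and -0.18 with library totals.

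Hsp90b1 (GRP94), the HSP90 of the ER and in mouse the folding factor for Toll-like receptors and integrins, is ENSRNOG00000026963, at chromosome 7, 27226569 to 27240533 on the minus strand. It had 481, 88.6 and 109 CPM in ACS libraries, against 91.2, 102 and 119.9 CPM in Control libraries. Only ACS replicate 1 exceeded the Control range, and replicate 2 was below it. The log2 fold change was 1.12 (SE 0.603, 95% interval -0.26 to 2.49, adjusted p = 0.297). With ACS replicate 1 left out it was -0.08 (adjusted p = 0.879). Reads may be shared with the pseudogenes that RefSeq lists for Hsp90b1, so its level is uncertain to that extent.

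Calr, calreticulin, is a calcium-binding lectin that holds newly made glycoproteins. It is ENSRNOG00000003029, at chromosome 19, 25956771 to 25961666 on the minus strand. Calr had 402, 185 and 235 CPM in ACS libraries, against 184, 193 and 190.0 CPM in Control libraries. ACS replicates 1 and 3 lay above the Control range and replicate 2 within it. The log2 fold change was 0.54 (SE 0.333, 95% interval -0.22 to 1.29, adjusted p = 0.365), and 0.15 without ACS replicate 1.

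Pdia4 and Pdia6 are protein disulfide isomerases, which form and reshuffle disulfide bonds. Pdia4 (ENSRNOG00000006228, chromosome 4, 77470636 to 77489535, minus strand) had 31.3, 9.42 and 12.6 CPM in ACS, against 18.3, 16.7 and 18.2 CPM in Control. ACS replicate 1 lay above all Control libraries and replicates 2 and 3 below all of them. The log2 fold change of -0.0034 (SE 0.430, 95% interval -0.98 to 0.98, adjusted p = 0.997) averages libraries on opposite sides; leaving out ACS replicate 1 gave -0.69 (adjusted p = 0.133). Pdia6 (ENSRNOG00000050197, chromosome 6, 42568220 to 42585652, plus strand) had 47.9, 42.0 and 43.4 CPM in ACS, against 41.1, 41.1 and 39.6 CPM in Control. These groups did not overlap, but the log2 fold change was 0.13 (SE 0.218, 95% interval -0.37 to 0.63, adjusted p = 0.741), and it was -0.20 with library totals. RefSeq lists a Pdia4 pseudogene, Pdia6l1, Calr3 and Calr4, which may share reads with these members.

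Herpud1, a ubiquitin-like membrane protein of the ER that organises the degradation of misfolded proteins, is ENSRNOG00000018796, at chromosome 19, 11046909 to 11057254 on the minus strand. Herpud1 had 127, 349.8 and 246 CPM in ACS libraries, against 119.9, 109.7 and 123 CPM in Control libraries. Its order ran against that of most members: ACS replicate 1 lay just above the Control range, and replicates 2 and 3 well above it. The log2 fold change was 1.04 (SE 0.371, 95% interval 0.19 to 1.88, adjusted p = 0.138). Without ACS replicate 1 it was 1.34 and passed the threshold (adjusted p = 0.0179; 4.99% of all genes were then called higher), and without ACS replicate 2 it was 0.64. In FPKM, which is divided by the library total, Herpud1 in ACS replicate 1 was at 51.5, below its Control range of 66.7 to 76.9. The groups therefore overlapped on that scale.

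**Figure D3:**
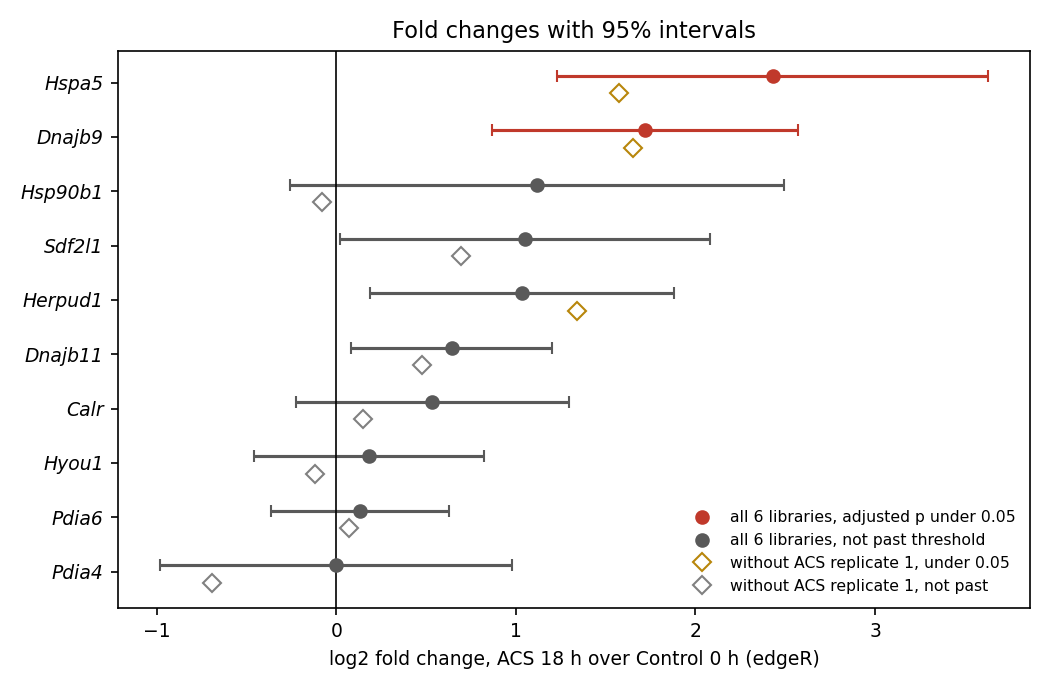
Log2 fold change of each chaperone, ACS 18 h over Control 0 h, from edgeR with all 6 libraries (filled circles with 95% intervals; red where the adjusted p is under 0.05) and without ACS replicate 1 (open diamonds; gold where the adjusted p is under 0.05). Hspa5 and Dnajb9 are past the threshold in both fits, Herpud1 only without that library, and Hsp90b1, Hyou1 and Pdia4 lie below 0 without it.

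The Control libraries held the members tightly, with coefficients of variation between 2.05% and 18.0%, while those of the ACS libraries ran between 6.91% and 97.7%. The members' summed level was 2604, 1335 and 1084 CPM in ACS libraries, against 678, 683 and 737 CPM in Control libraries. Set against each gene's Control mean, the median member stood at 1.01, 0.18 and 0.41 on the log2 CPM scale in ACS replicates 1, 2 and 3. Of the 6987 genes with a mean of at least 10 CPM outside the list, the pattern over the 6 libraries most like this median was that of Stam, with a root mean square log2 difference of 0.0496. Fbn1 (0.0792), Tsg101 (0.0800), Ssr1 (0.0819) and Ctps1 (0.0822) followed.

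**Figure D4:**
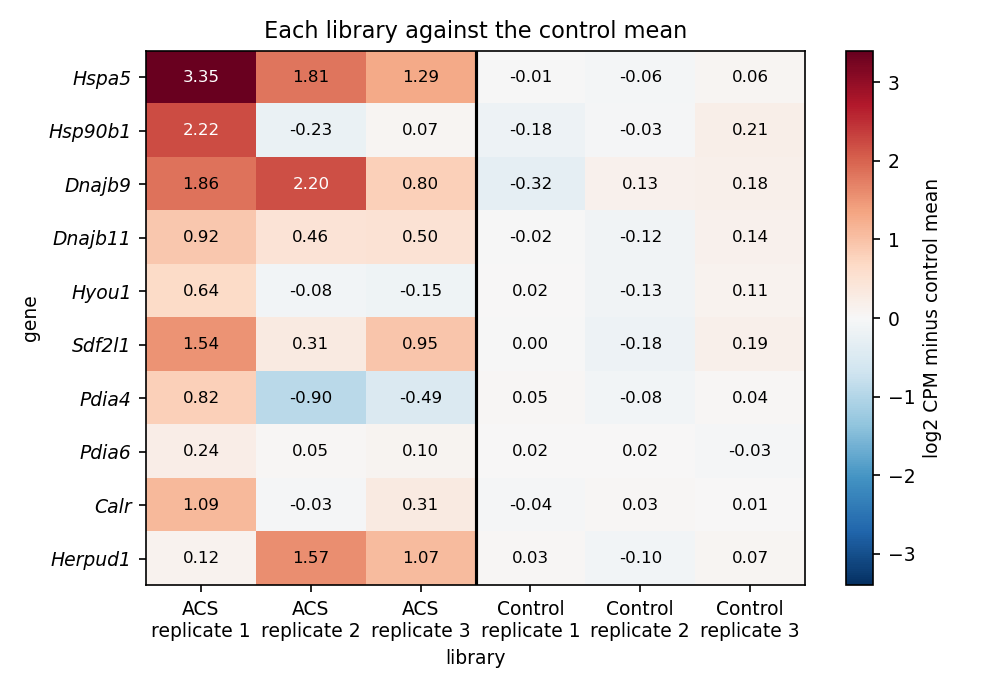
Log2 CPM of each chaperone in each library minus its mean over the Control libraries, with ACS libraries left of the line and Control libraries right of it (red above the Control mean, blue below). Hspa5 reaches 3.35 in ACS replicate 1, while Herpud1 is at 0.12 there and at 1.57 in replicate 2, and Pdia4 changes sign between replicate 1 (0.82) and replicate 2 (-0.90).

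The order of the members by mean FPKM differed between the groups. In ACS muscle Hspa5 came first at 219 ± 135 FPKM, then Calr at 126 ± 31.2, Herpud1 at 123 ± 69.6, Dnajb9 at 46.9 ± 23.6 and Hsp90b1 at 45.8 ± 37.9 FPKM (SD, n = 3). Pdia6 (22.4 ± 1.96), Dnajb11 (15.7 ± 0.418), Hyou1 (10.8 ± 1.74), Pdia4 (6.40 ± 3.19) and Sdf2l1 (2.09 ± 0.589 FPKM) followed. Neighbours in that order overlapped, except Pdia6 with Dnajb11, Dnajb11 with Hyou1, and Pdia4 with Sdf2l1. In Control muscle Calr came first at 114 ± 5.33 FPKM, then Herpud1 at 71.5 ± 5.14, Hspa5 at 54.9 ± 3.50, Hsp90b1 at 29.2 ± 4.90 and Pdia6 at 25.7 ± 0.377 FPKM (SD, n = 3). Dnajb9 (17.8 ± 3.64), Dnajb11 (12.8 ± 1.47), Hyou1 (12.3 ± 1.21), Pdia4 (8.53 ± 0.472) and Sdf2l1 (1.296 ± 0.205 FPKM) followed. There the neighbours that overlapped were Hsp90b1 with Pdia6, Dnajb9 with Dnajb11, and Dnajb11 with Hyou1.

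Ratios of FPKM within a library set Hspa5 against its partners without any scaling between libraries. Hspa5 over Hsp90b1 was 4.16, 7.80 and 4.41 in ACS libraries, against 2.14, 1.86 and 1.71 in Control libraries. Hspa5 over Calr was 2.31, 1.74 and 0.951 in ACS, against 0.492, 0.456 and 0.502 in Control. No ACS library fell within the Control range of either ratio, all being above it, although ACS replicate 1 was highest in only 1 of them. Hyou1 over Hspa5 was 0.0342, 0.0598 and 0.0824 in ACS, against 0.228, 0.212 and 0.230 in Control. Pdia4 over Hspa5 was 0.0270, 0.0235 and 0.0451 in ACS, against 0.161, 0.153 and 0.153 in Control. These ratios were lower in every ACS library than in any Control library. Herpud1 over Hspa5 was 0.138, 1.10 and 1.11 in ACS and 1.34, 1.27 and 1.31 in Control. Dnajb9 over Hspa5 was 0.114, 0.420 and 0.228 in ACS and 0.258, 0.365 and 0.348 in Control, with overlap. Against Hspa9, its counterpart in the mitochondrion, Hspa5 stood at 5.28, 1.71 and 1.23 in ACS and at 0.606, 0.598 and 0.556 in Control. The exact two-sided permutation p was 0.1 for each of these ratios but Dnajb9 over Hspa5 (0.6). A p of 0.1 is the smallest that 3 against 3 libraries allow, and it was 0.114 after adjustment over 8 ratios. Hspa5 is a term of every ratio, so the ratios share its change and are not separate results.

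Around the 10 members, 155 other genes of the ER and of related families were tested, and 3 rose: Ppp1r15a, Edem1 and Fkbp10. None fell, and the background share called higher was the 3.43% given above. Ppp1r15a (GADD34), which directs the dephosphorylation of eIF2alpha after PERK signalling, had 367, 318 and 154 CPM in ACS libraries, against 61.3, 93.6 and 41.3 CPM in Control libraries, without overlap. Its log2 fold change was 2.10 (SE 0.430, adjusted p = 0.0387). Edem1, a lectin that passes misfolded glycoproteins to degradation, had 33.1, 21.9 and 23.4 CPM in ACS, against 8.44, 8.32 and 12.7 CPM in Control, a log2 fold change of 1.41 (SE 0.300, adjusted p = 0.0435). Fkbp10, a prolyl isomerase that acts on collagen in the ER, had 14.8, 15.0 and 9.38 CPM in ACS, against 5.41, 3.34 and 3.59 CPM in Control, a log2 fold change of 1.66 (SE 0.345, adjusted p = 0.0397). All 3 kept their call without ACS replicate 1 (adjusted p = 0.0320 for Ppp1r15a, 0.0341 for Edem1 and 0.0307 for Fkbp10). Without ACS replicate 2 all were lost (0.0779, 0.0630 and 0.0828 in that order), as they were without any 1 Control library, with adjusted p between 0.121 and 0.208. With library totals Ppp1r15a was still called (0.04997), while Edem1 (0.0790) and Fkbp10 (0.0642) were not. Edem1 and Fkbp10, like Ppp1r15a, had no ACS library within the Control range.

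Among the sensors and transcription factors of the unfolded protein response, 1 of 22 tested genes rose (Ppp1r15a) and 0 fell, with a median log2 fold change of 0.47 (0.28 without ACS replicate 1). Atf6, the sensor that is cleaved to a transcription factor, had 289, 155 and 100.1 CPM in ACS, against 50.7, 54.9 and 64.3 CPM in Control. The groups did not overlap, and the log2 fold change of 1.68 was just outside the threshold (SE 0.395, adjusted p = 0.0530). Atf6 passed without ACS replicate 1 (1.17, adjusted p = 0.0334) and without ACS replicate 3 (1.96, adjusted p = 0.0142). It did not pass without ACS replicate 2 (adjusted p = 0.0857), without Control replicate 1, 2 or 3 (0.223, 0.215 and 0.168) or with library totals (0.0745). Of the 20 alternative fits, Atf6 passed in 6. Xbp1, whose mRNA is spliced by IRE1, had 54.2, 61.9 and 38.8 CPM in ACS, against 33.8, 26.7 and 28.0 CPM in Control (log2 fold change 0.81, SE 0.264, adjusted p = 0.112). Leaving out ACS replicate 1, 2 or 3 gave Xbp1 log2 fold changes of 0.77, 0.62 and 0.97 (adjusted p = 0.118, 0.261 and 0.0416). These are counts per gene, so the spliced form was not measured. Atf4, the transcription factor translated when eIF2alpha is phosphorylated, had 507, 369.9 and 258 CPM in ACS, against 222, 233 and 245 CPM in Control (log2 fold change 0.70, adjusted p = 0.221; 0.43 if ACS replicate 1 was left out). Ddit3 (CHOP), a transcription factor linked to cell death under ER stress, had 16.4, 11.6 and 21.2 CPM in ACS, against 9.36, 17.6 and 7.43 CPM in Control, with overlap (log2 fold change 0.52, adjusted p = 0.452). The sensors Ern1 (log2 fold change 0.36, adjusted p = 0.376) and Eif2ak3 (0.24, adjusted p = 0.763) did not pass; Ern1 had 72.9, 76.1 and 60.7 CPM in ACS and 56.2, 49.4 and 57.7 CPM in Control, and Eif2ak3 had 12.4, 5.09 and 4.63 CPM in ACS and 5.80, 5.18 and 7.64 CPM in Control.

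Of 44 other ER folding factors tested, 1 rose (Fkbp10) and 0 fell, with a median log2 fold change of 0.27 that was 0.0077 without ACS replicate 1. Pdia3, the disulfide isomerase that works with calreticulin, had 173, 85.8 and 60.9 CPM in ACS, against 44.9, 41.9 and 50.8 CPM in Control, without overlap (log2 fold change 1.21, SE 0.384, adjusted p = 0.104). Leaving out ACS replicate 1, 2 or 3 gave Pdia3 log2 fold changes of 0.68, 1.298 and 1.49 (adjusted p = 0.125, 0.144 and 0.0312). Canx, the membrane-bound relative of calreticulin, had 296, 209 and 169 CPM in ACS, against 146, 167 and 167 CPM in Control (log2 fold change 0.49, adjusted p = 0.342). P4hb, the classical disulfide isomerase, had 214, 144 and 141 CPM in ACS, against 137, 141 and 135 CPM in Control (log2 fold change 0.28, adjusted p = 0.565). Each of these 3 was highest in ACS replicate 1, without which the log2 fold change was 0.24 for Canx and 0.051 for P4hb. Of 27 tested genes of ER-associated degradation, 1 rose (Edem1) and 0 fell, with a median of 0.23.

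Of 29 translocon and signal peptide genes, 0 were called by edgeR, and 3 had an unadjusted p under 0.05; DESeq2 called 1, limma-voom 0 and limma-voom with quality weights 1. Their median log2 fold change was 0.19. The most abundant of them, Srpr, a subunit of the receptor that docks ribosomes at the ER, had 105, 110.1 and 147 CPM in ACS, against 125, 94.1 and 127 CPM in Control (log2 fold change 0.07, adjusted p = 0.897). Of 16 genes of the sarcoplasmic reticulum calcium store, edgeR, DESeq2 and both limma-voom fits called 0, with 0 at an unadjusted p under 0.05 in edgeR. Their median was -0.10, and 0.10 without ACS replicate 1. Ryr1, the calcium release channel, had 3571, 8182 and 9276 CPM in ACS, against 8444, 7354 and 6873 CPM in Control (log2 fold change -0.11, adjusted p = 0.906; 0.21 if ACS replicate 1 was left out). Casq1, calsequestrin, the main calcium-binding protein of the store, had 1080, 1608 and 4644 CPM in ACS, against 1832, 1866 and 1911 CPM in Control (log2 fold change 0.39, adjusted p = 0.687; -0.48 if ACS replicate 3 was left out). Both were lowest in ACS replicate 1, where 8 chaperones were highest.

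Counterparts of the same families in the cytosol and mitochondrion gave 0 calls among 18 genes tested by edgeR and 3 at an unadjusted p under 0.05, of which 2 were higher and 1 lower; DESeq2 called 2, limma-voom 0 and the weighted fit 1. Their median log2 fold change was 0.27, and -0.0034 without ACS replicate 1. Hspa9, the HSP70 of the mitochondrion, had 268, 285 and 277 CPM in ACS, against 228, 223 and 260.3 CPM in Control (log2 fold change 0.22, adjusted p = 0.613). Its groups did not overlap on this scale, and its log2 fold change was -0.09 with library totals. Hsp90ab1, a cytosolic HSP90, had 1237, 1324 and 1076 CPM in ACS, against 1177, 1240 and 1205 CPM in Control (log2 fold change 0.01, adjusted p = 0.993). Trap1, the HSP90 of the mitochondrion, had 31.6, 48.0 and 48.3 CPM in ACS, against 62.7, 50.9 and 45.8 CPM in Control (log2 fold change -0.32, adjusted p = 0.505). Hspa8, the cytosolic HSP70 made at all times, was listed at 1.22, 7.51 and 5.80 CPM in ACS and at 4.83, 5.22 and 4.67 CPM in Control, but its reads may be split with near-identical copies, so its level is uncertain.

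**Figure D5:**
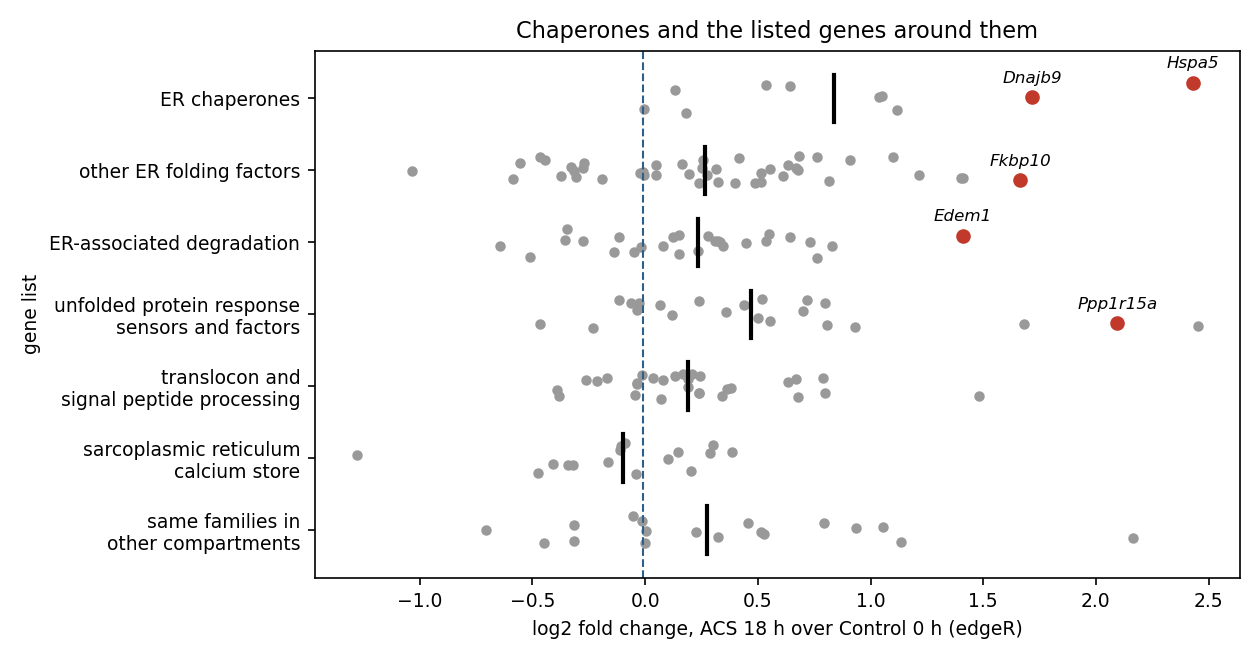
Log2 fold change, ACS 18 h over Control 0 h, of each tested gene in the chaperone list and in 6 lists around it; black bars are list medians, the dashed line is the median of all genes tested (-0.01), and red points passed the adjusted threshold. The chaperones' median is 0.84, the other lists' medians lie between -0.10 and 0.47, and the 5 red points are all above 0.

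Markers of other cell types were summed beside the chaperones. Neutrophil markers (12 matched) summed to 389, 35.2 and 89.6 CPM in ACS, against 23.4, 21.1 and 17.2 CPM in Control, and 1 of them was at 0 in all libraries. Of 7 tested, 6 were called higher by edgeR, DESeq2 and limma-voom with quality weights, and 0 by limma-voom. At an unadjusted p under 0.05 in edgeR, 6 were higher and 1 was lower. Macrophage markers (12 matched) summed to 1827, 190.0 and 135 CPM in ACS, against 55.2, 90.3 and 75.7 CPM in Control. Of 11 tested, edgeR called 1 higher, DESeq2 6, limma-voom 0 and the weighted fit 4. At an unadjusted p under 0.05 in edgeR, 8 were higher and 1 was lower. The ACS libraries lay wholly above the Control libraries for 6 of these markers and wholly below for 1. Over all genes tested the shares were 16.7% above and 14.8% below. For both of these types every ACS sum lay above every Control sum. Fibroblast markers (Col1a2 listed at 0 throughout) summed to 2365, 2423 and 3005 CPM in ACS, against 1100, 712 and 963 CPM in Control, also without overlap and highest in ACS replicate 3. Of 8 tested, edgeR called 0 and limma-voom 0, with 5 higher at an unadjusted p under 0.05 in edgeR, and DESeq2 called 2 higher and the weighted fit 1; edgeR called 1 higher when ACS replicate 1 was left out. Plasma and B cell markers, of a lineage rich in ER (10 matched, Tnfrsf17 at 0 in all libraries), summed to 31.3, 4.63 and 5.36 CPM in ACS, against 6.68, 5.22 and 3.76 CPM in Control, with overlap. Of 2 tested, edgeR and both limma-voom fits called 0, with 1 at an unadjusted p under 0.05 in edgeR, and DESeq2 called 1 higher. Endothelial markers summed to 872, 547 and 301 CPM in ACS, against 578, 376 and 496 CPM in Control, with overlap. Of 11 tested, edgeR, DESeq2 and limma-voom called 0, with 1 lower at an unadjusted p under 0.05 in edgeR. The weighted fit called 1 lower, beside 356 of all 12873 genes it tested. When ACS replicate 1 was left out edgeR called 2 lower, beside 222 of all 13153 genes then tested. The neutrophil, macrophage, plasma and B cell, and endothelial sums were highest in ACS replicate 1, as were 8 chaperones. The part of these cells, and of the mitochondrial share of replicate 1, in the chaperone values was not tested. In bulk muscle, fewer cells of a type and less RNA per cell cannot be told apart.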

How the data were processed

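Total RNA of rat flexor digitorum longus, depleted of ribosomal RNA, was measured in 3 ACS libraries (18 h) and 3 Control libraries (0 h), grouped by sample title; the treatment label reads ACS for all 6. The authors deposited whole-number read counts per gene, not normalized, for 30957 Ensembl genes, and FPKM, which equalled count over length and column total in all 12089 genes checked (tolerance 0.1%). The submitters' processing notes list HISAT2 2.0.4, StringTie 1.3.0 and Rnor 6.0. Not given in the sources used here are the counting tool, its strand setting and its handling of reads with several matches. Rows without a symbol numbered 48 and were kept. Library totals were 14340865 to 21003928 counts. Libraries of a group differed by more than sampling noise (chi-square per degree of freedom 38.2 to 721).

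Genes were filtered with filterByExpr (minimum count 10, minimum total 15), scaled with TMM and tested with the quasi-likelihood test of edgeR 4.0.16 (R 4.3.3) at a Benjamini-Hochberg adjusted p under 0.05; the common biological coefficient of variation was 0.381. Errors and 95% intervals come from the F statistic. The fit was tested on simulated data. No simulated library was made to stand apart as ACS replicate 1 did, so that test does not cover this feature. DESeq2 1.42.0, limma 3.58.1 (voom, voom with quality weights, and log2 FPKM with a pseudocount of 1 or 0.1), other scalings and filters, the replicate number as a block, a term for the ji libraries, and leaving out each library were the alternatives. The labels do not say that replicate numbers pair libraries, so the numbers were used as a block only in an alternative. Deviations of same-numbered libraries correlated at -0.0629, 0.0105 and 0.0397, and those of other pairs at -0.0686 to 0.0635. These values cannot decide whether libraries were paired. Ratios of FPKM were tested with exact permutation tests (scipy 1.17.1), and figures were drawn with matplotlib 3.10.9.

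The members and lists were chosen with earlier results of these data known. Named beyond the members were up to 3 called genes of each list or, where none was called, its most abundant gene; the known transducers; the nearest family counterparts; and the 5 genes most like the members' median. The lists hold 158 different genes beside the members, 5 of their entries matched through an older symbol, and Dnajc3 is in 2 of them. Promoters are RefSeq's, on GRCr8; gene coordinates are those of the files.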

Additional observations from a re-analysis of the deposited data

How the results depend on the processing

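The counts of called genes were recomputed under 20 alternatives. So were the log2 fold changes of the members, the transducers, the family counterparts and the genes named from each list by call or abundance. The FPKM orders, ranks and ratios, the genes most like the members, the promoter matches and the marker sums were not. Hspa5 passed in 11 of 20, with a log2 fold change between 1.57 and 2.80, and Dnajb9 in 8 of 20, between 1.25 and 2.11; both stayed positive in all. Herpud1 passed in 2: with voom quality weights (1.23) and without ACS replicate 1. The number of chaperones called higher was 1 with library totals and with limma-voom, 0 in the 3 FPKM fits, with the ji term and without both ji libraries, and 0 to 3 when 1 library was left out; 0 were called lower in any. With the replicate number as a block it was 1 (Hspa5, log2 fold change 2.14, adjusted p = 0.0496; Dnajb9, adjusted p = 0.0564), the listed genes called higher were 2, and 442 genes in all were higher and 63 lower.

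Of the listed genes around them, 3 higher in the reported fit, 1 was higher with library totals, log2(FPKM + 1) and the ji term, 11 with DESeq2 and with quality weights, 7 with no count filter, 5 with at least 50 counts, 0 with the other FPKM fits and without the ji libraries, and 0 to 11 with 1 library left out. Of all genes, 442 higher in the reported fit, 1316 were higher with DESeq2, 262 with voom, 1059 with quality weights, 249 with log2(FPKM + 1), 199 with log2(FPKM + 0.1), 24 with no FPKM filter, 755 with no count filter, 248 with the ji term, 171 without the ji libraries and 0 to 1286 with 1 library left out. Lower were 228 with library totals, 428 with DESeq2, 356 with quality weights, 268 with log2(FPKM + 1), 13 with no FPKM filter, 153 with no count filter, 32 with the ji term, 30 without the ji libraries and 0 to 398 with 1 library left out, against 91. Leaving out a library also leaves fewer residual degrees of freedom. Counts rose in some of those fits and fell in others. Why they moved was not tested.

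The median log2 fold change of all genes was -0.32 with library totals, -0.30 with log2(FPKM + 1) and -0.37 with log2(FPKM + 0.1). It was -0.079 with no FPKM filter, and signs in these fits are read relative to these shifts. Log2 fold changes that changed sign belonged to genes that were not called. With library totals, log2(FPKM + 1), log2(FPKM + 0.1) and no FPKM filter they were -0.18, -0.18, -0.19 and -0.18 for Hyou1, -0.20, -0.19, -0.20 and -0.19 for Pdia6, -0.24, -0.26, -0.26 and -0.26 for Srpr, -0.31, -0.33, -0.33 and -0.33 for Hsp90ab1, -0.16, -0.11, -0.19 and -0.11 for Eif2ak3, -0.092, -0.10, -0.10 and -0.10 for Hspa9, and -0.077, -0.079, -0.081 and -0.079 for P4hb; Casq1 had -0.23 in each FPKM fit. Without ACS replicate 1 they were -0.080 for Hsp90b1, -0.12 for Hyou1, -0.35 for Eif2ak3, -0.011 for Hsp90ab1, 0.21 for Ryr1 and 0.44 for Hspa8. Pdia4 was at 0.022 with DESeq2 size factors, 0.043 with at least 50 counts, 0.21 without the ji libraries, and 0.26 and 0.18 without ACS replicates 2 and 3. Srpr was at -0.028 without the ji libraries and at -0.10 and -0.11 without ACS replicate 3 and Control replicate 2. Hspa8 was at 0.24 with quality weights and 0.0074 with at least 50 counts. Casq1 was at -0.46 without the ji libraries and -0.48 without ACS replicate 3. Eif2ak3 was at -0.14 with quality weights. Hsp90ab1 was at -0.015 without mitochondrial and haemoglobin genes, -0.0093 with DESeq2, -0.037 with no count filter, -0.10 without ACS replicate 2, and -0.069, -0.030 and -0.038 without Control replicates 1, 2 and 3. With 1 library left out, the other ends of these ranges were 1.45 for Hsp90b1, 0.31 for Hyou1, -0.69 for Pdia4, 0.16 for Srpr, -0.37 for Ryr1, -0.48 for Hspa8, 0.079 for Hsp90ab1, 0.48 for Eif2ak3 and 0.74 for Casq1.

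Sdf2l1 had no value under the filter of at least 50 counts, and its counts of 22 to 44 limit its precision. With 3 libraries a group no exact permutation p can go below 0.1.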

Other observations

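Among the listed genes that did not pass, some stood near the threshold with groups that did not overlap. They were picked out after their values were seen. Over all genes tested, 16.7% had every ACS library above every Control library. Manf, a secreted ER protein that binds BiP, had 31.2, 13.5 and 17.3 CPM in ACS, against 7.61, 6.67 and 9.13 CPM in Control (log2 fold change 1.40, adjusted p = 0.0626). Sec61a1, the pore of the translocon, had 65.0, 34.8 and 23.3 CPM in ACS, against 15.8, 12.8 and 15.4 CPM in Control (log2 fold change 1.48, adjusted p = 0.0623). Txndc11, a thioredoxin-domain protein of the ER, had 25.1, 44.6 and 18.4 CPM in ACS, against 10.97, 10.5 and 11.6 CPM in Control (log2 fold change 1.41, adjusted p = 0.0587). Trib3, a pseudokinase induced downstream of Atf4 and Ddit3 in mammalian cells, had 4.30, 1.54 and 1.34 CPM in ACS, against 0.293, 0.484 and 0.496 CPM in Control (log2 fold change 2.45, adjusted p = 0.0574). The Control levels of Trib3 were below those of Sdf2l1 in the same libraries, so its log2 fold change rests on few reads. Manf, Sec61a1 and Trib3 were highest in ACS replicate 1, and Txndc11 in replicate 2.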
